A study of Rattus norvegicus with 17 samples.

Results

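The epithelial sodium channel (ENaC) and the sodium pump were followed through 7 genes in rat meibomian gland (MG). The 7 were taken by symbol from the 17251 genes of the expression table, and all 7 were listed and passed the filter on low values. Scnn1a, Scnn1b and Scnn1g encode the alpha, beta and gamma subunits of ENaC. Atp1b1 and Atp1b3 encode the beta 1 and beta 3 subunits of the sodium pump, Nedd4l encodes the ubiquitin ligase that removes ENaC from the cell surface, and Slc12a2 encodes the cotransporter NKCC1, which carries sodium, potassium and chloride into the cell.

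In a salt-absorbing epithelium sodium enters at the apical face through ENaC and leaves at the basolateral face through the sodium pump, whose beta subunit is needed for folding and delivery to the membrane. Aldosterone acts through the mineralocorticoid receptor (MR) on this path in the kidney and colon. In those tissues it induces Sgk1, a kinase that phosphorylates NEDD4L and so keeps ENaC at the surface.

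The study asked how an excess of MR and UVB irradiation, alone and together, change the MG, the lipid gland of the eyelid. All rats were females of 10 to 12 weeks. P1.hMR rats carry human MR under its own proximal P1 promoter, which is not restricted to the MG, and WT rats do not. RNA was sequenced from the glands of 4 WT and 5 P1.hMR controls that had no UVB, and of 3 WT and 5 P1.hMR rats whose eyelids were irradiated for 5 days. By the study's account both eyes of a rat, where used, were pooled into a single sample, so that p-values measure the spread between rats.

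Values are TPM, a level per transcript length scaled to a fixed total, which summed to 804378 to 840817 over the listed genes of a library. The methods give a range of mapped reads, but TPM keeps no depth of a single library, so the counting error of a value is not known exactly. NR3C2, the entry of the human transgene, had 0 TPM in all 7 WT libraries and 5.31 to 9.31 TPM in the 10 P1.hMR libraries. No library thus went against its genotype label, while this gene does not check the treatment label. All 10 meibocyte markers were listed, and their sum was 39810 to 53010 TPM. Skeletal muscle markers (8 of 10 listed) summed to 1521 to 3535 TPM and hair shaft markers (7 of 8 listed) to 175 to 797 TPM, so the samples also held tissue around the gland. Lacrimal gland markers (3 of 5 listed) stayed at or below 7.25 TPM. In bulk tissue, fewer cells of a type and less RNA per cell cannot be told apart.

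The order of the 7 genes by mean level over the 17 libraries ran from a pump subunit to an ENaC subunit. Atp1b3 was at 306.7 TPM, rank 420 of 13105 genes tested, and Atp1b1 was at 112.1 TPM. Among ENaC subunits Scnn1b was the most abundant at 79.4 TPM, against 13.5 TPM for Scnn1a and 9.62 TPM for Scnn1g. Slc12a2 was at 24.9 TPM and Nedd4l at 17.02 TPM. The ENaC subunits were thus far from equal as RNA: the beta subunit was above the alpha subunit in every library, by a ratio of 4.11 to 11.7. Atp1b3 was above Atp1b1, Scnn1b above Slc12a2, and Slc12a2 above Nedd4l, in every library, although the ranges of Slc12a2 and Nedd4l across libraries overlapped. The other neighbours in the order overlapped: Atp1b1 with Scnn1b after UVB, Nedd4l with Scnn1a, and Scnn1a with Scnn1g, whose ranges shared 7.15 to 13.33 TPM.

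RefSeq promoter windows in build GRCr8 were matched by gene ID for 5 of the 7 genes. No window was matched for Scnn1a and Atp1b1. The 2 windows below are shown because they belong to the ENaC subunits with the largest gap in level, and both lie on chromosome 1. Each is the 250 bases before the start of the gene on the plus strand, chr1:185861126-185861375 for Scnn1b and chr1:185735975-185736224 for Scnn1g. Capitals mark matches, on either strand, to the GC box GGGCGG or to the AP-1 motif TGANTCA.
Scnn1b: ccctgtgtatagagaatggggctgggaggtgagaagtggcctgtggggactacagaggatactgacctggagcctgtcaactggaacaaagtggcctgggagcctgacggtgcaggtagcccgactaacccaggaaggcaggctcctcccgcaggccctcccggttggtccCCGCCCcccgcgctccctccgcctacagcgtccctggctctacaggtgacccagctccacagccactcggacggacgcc
Scnn1g: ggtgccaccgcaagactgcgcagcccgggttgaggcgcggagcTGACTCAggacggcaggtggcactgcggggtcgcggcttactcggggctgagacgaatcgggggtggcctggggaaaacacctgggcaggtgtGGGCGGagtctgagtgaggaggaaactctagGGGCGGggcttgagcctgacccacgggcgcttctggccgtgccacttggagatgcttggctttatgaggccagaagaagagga
Both windows were 65.6% G or C. The Scnn1b window held 1 GC box and the Scnn1g window 2, a motif found in 30.5% of all 33469 windows of this length. The AP-1 motif stood only in the Scnn1g window among the 5 matched genes, against 6.34% of all windows. No window of the 5 genes held the corticosteroid receptor hexamer AGAACA (17.5% of all windows) or TATAAA (12.9%) on either strand. A match is a run of letters and no evidence of binding, and the absence of these letters says nothing about a receptor acting elsewhere.

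**Figure D1:**
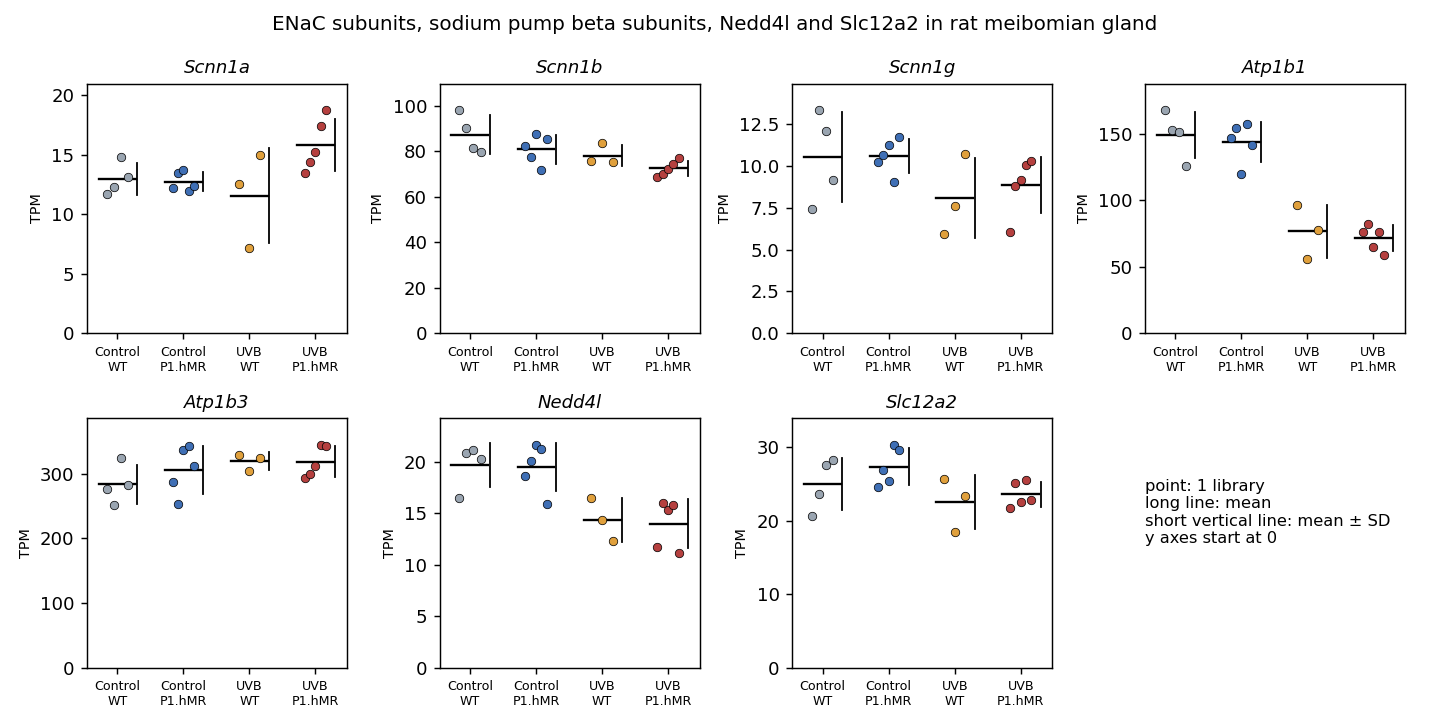
Level of the 7 genes in TPM in each of the 17 libraries, by group, with the mean (long line) and SD (short line); every y axis starts at 0. The 8 UVB libraries of Atp1b1 lie at 56.04 to 96.32 TPM, below all 9 control libraries at 119.66 to 167.82 TPM, whereas the groups of the other 6 genes overlap.

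The pump subunit Atp1b1 fell after UVB in rats of both genotypes, and it was the only one of the 7 genes that passed both the adjusted p threshold of 0.05 and the log2 fold change threshold of 0.5. In control WT glands Atp1b1 was at 167.82, 152.81, 151.47 and 125.81 TPM, and in UVB WT glands at 96.32, 56.04 and 77.31 TPM. In control P1.hMR glands it was at 146.95, 154.49, 119.66, 157.43 and 141.69 TPM, and in UVB P1.hMR glands at 76.51, 82.02, 65.03, 75.82 and 58.78 TPM. Every UVB library was below every control library. The UVB mean was 51.2% of the control mean in WT (76.6 ± 20.2 against 149.5 ± 17.4 TPM, SD, n = 3 and 4) and 49.7% in P1.hMR (71.6 ± 9.46 against 144.0 ± 14.97 TPM, SD, n = 5 and 5).

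On the log2(TPM + 1) scale the change of Atp1b1 was -0.98 in WT (SE 0.15, limma adjusted p = 0.000529) and -1.001 in P1.hMR (SE 0.13, limma adjusted p = 2.27e-05). The difference between these 2 responses was -0.02, with a 95% confidence interval from -0.44 to 0.40 and a limma adjusted p of 0.995, so a difference of up to that size cannot be told from 0 here. In WT 1 of the 7 genes was called, where 7.91% of the 13105 genes tested were, and in P1.hMR again 1 of 7, where 10.8% were. Averaged over genotypes 1 of 7 was called (9.48% of all genes), Atp1b1 at -0.99 (SE 0.10, limma adjusted p = 1.39e-06). Non-overlapping groups were common across the transcriptome, at 26.6% of genes in WT and 27.2% in P1.hMR. The median log2 fold change of the 7 genes was -0.21 in both genotypes, where that of all genes was 0.01 in WT and -0.02 in P1.hMR.

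Markers of several cell types also differed with UVB, some lower and some higher. The sum of the nerve and Schwann cell markers (6 of 6 listed) was 51.9 to 92.6 TPM in the control libraries and 31.2 to 48.3 TPM in the UVB libraries. Hair shaft markers summed to 297 to 797 TPM without UVB and to 175 to 456 TPM after UVB, with overlap, and muscle markers to 2007 to 3535 TPM and 1521 to 3091 TPM, also with overlap. Averaged over genotypes, 5 of 5 tested nerve, 7 of 7 hair shaft and 4 of 8 muscle markers were lower with a limma adjusted p under 0.05, where 47.2% of all genes had such a p in either direction. Endothelial markers (4 of 4 at such a p) were higher, at 24.04 to 31.95 TPM without and 31.48 to 40.51 TPM with UVB in sum. Of the 10 meibocyte markers 5 were higher and 3 lower at such a p. Scd4 went from a mean of 1564 to 674.8 TPM in WT and from 1485 to 570.7 TPM in P1.hMR. Elovl3 went from 934.6 to 1363 TPM and from 869.9 to 1477 TPM. The sum of the meibocyte markers does not show such opposite changes, and these markers were not fitted as a covariate. Of 8 tested markers of macrophages and neutrophils 3 were higher and 1 lower, with Cd163 at an average log2 fold change of 2.61, Mrc1 at 1.33 and Csf3r at 1.05, while 2 of 4 adipocyte markers were lower. Of 3 tested goblet cell markers 1 had such a p, Fcgbp, lower at -1.97. In WT the means of Agr2 (1.28 and 5.09 TPM) and Spdef (0.715 and 1.42 TPM) were higher after UVB. In P1.hMR they were lower (4.23 and 3.14 TPM, and 1.75 and 0.768 TPM). The part of these markers in the change of Atp1b1 was not tested, apart from the covariates. With the nerve markers as a covariate, an alternative chosen after these values were seen, Atp1b1 stayed called, at -0.75 in WT (limma adjusted p = 0.0283) and -0.80 in P1.hMR (limma adjusted p = 0.00541). The covariate, the mean log2(TPM + 1) of the nerve markers, was 2.43 to 2.87 without and 2.02 to 2.39 with UVB. Because it did not overlap between treatments, fits with it, here and below, separate nerve content poorly from UVB. The basal and ductal epithelial markers (6 of 8 listed; Krt15 and Krt6a were not) overlapped in sum, at 9966 to 12050 TPM without and 9690 to 15440 TPM with UVB. Single members went both ways: averaged over genotypes Krt14 was higher (0.49, limma adjusted p = 0.000248), and Epcam (-0.33, limma adjusted p = 1.14e-05) and Cdh1 (-0.28, limma adjusted p = 0.000945) were lower. All 3 were below the fold threshold.

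The other beta subunit, Atp1b3, was not called after UVB. It was at 251.61 to 323.94 TPM in control WT, 303.76 to 329.08 TPM in UVB WT, 253.53 to 342.42 TPM in control P1.hMR and 293.81 to 344.15 TPM in UVB P1.hMR glands. Its log2 fold change after UVB was 0.18 in WT (95% interval -0.03 to 0.38, limma adjusted p = 0.217) and 0.06 in P1.hMR (-0.11 to 0.23, limma adjusted p = 0.582).

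Ratios within a library put the 2 beta subunits side by side. The median ratio of Atp1b1 to Atp1b3 was 0.533 in WT and 0.460 in P1.hMR controls, and 0.238 and 0.220 after UVB. The log2 difference was -1.17 in WT and -1.07 in P1.hMR. Every UVB library was below every control library. In P1.hMR the ratio had an exact two-sided permutation p of 0.00794, the smallest that 5 against 5 libraries can give (0.00952 adjusted over the 6 ratios examined, of which 5 are reported). In WT it had an exact p of 0.0571, the smallest that 3 against 4 libraries allow, so no ratio could pass the threshold there. With treatment permuted within genotype it had an exact p of 0.000227, again the smallest possible (0.000454 adjusted). The ratio uses the Atp1b1 values already given, so it is not a separate result.

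**Figure D2:**
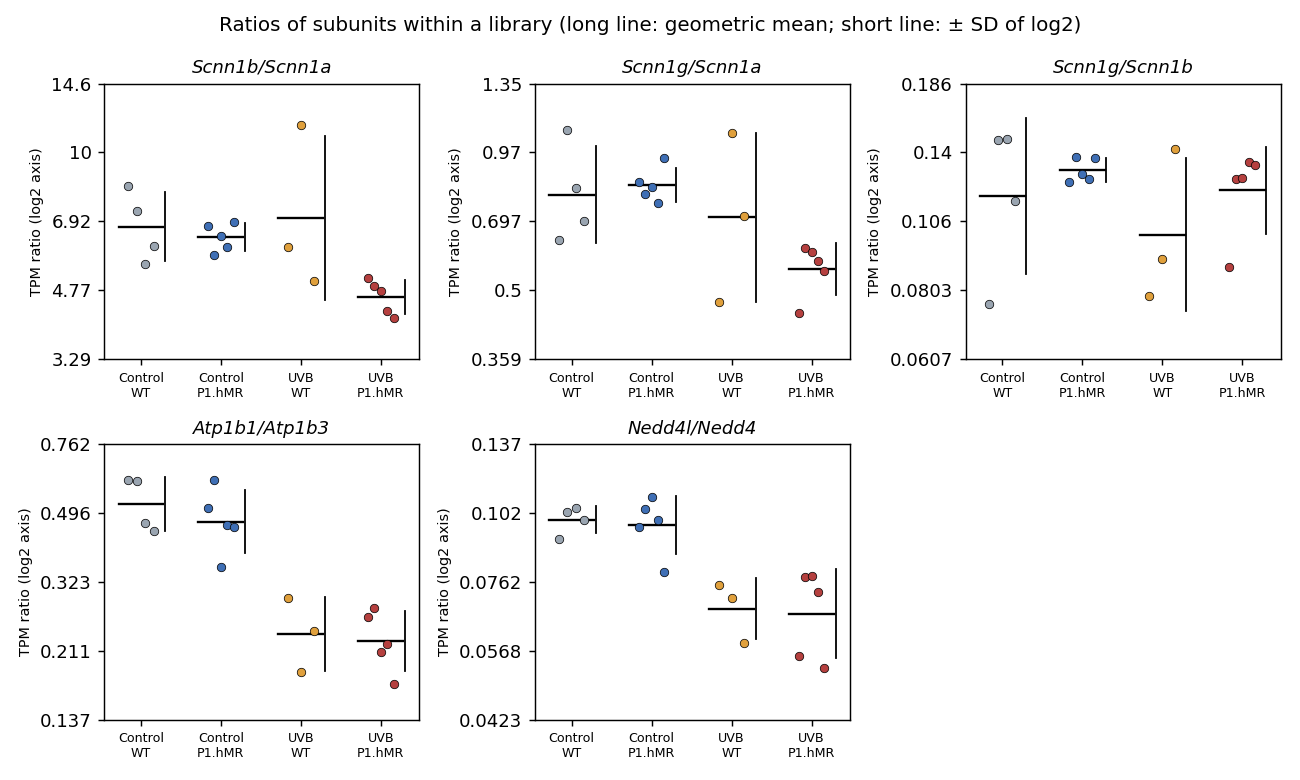
TPM ratio of 2 genes within each of the 17 libraries on log2 axes, with the geometric mean (long line) and the SD of the log2 ratio (short line) by group. Atp1b1/Atp1b3 and Nedd4l/Nedd4 are lower in every UVB library than in every control library; for Nedd4l/Nedd4 the lowest control library is at 0.0795 and the highest UVB library at 0.0781.

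No ENaC subunit was called after UVB in either genotype, and in P1.hMR the sign of Scnn1a differed from that of the other 2. Scnn1a, the alpha subunit, was at 11.70, 12.33, 14.80 and 13.13 TPM in control WT and at 12.56, 7.15 and 14.96 TPM in UVB WT glands. In control P1.hMR glands it was at 12.17, 13.44, 13.71, 11.92 and 12.37 TPM, and in UVB P1.hMR glands at 13.45, 14.36, 15.25, 17.44 and 18.74 TPM. The UVB P1.hMR group held the 3 highest values of all 17 libraries, and UVB WT replicate 2 the lowest. The log2 fold change was -0.21 in WT (95% interval -0.56 to 0.15, limma adjusted p = 0.401) and 0.29 in P1.hMR (-0.003 to 0.58, limma adjusted p = 0.109).

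The opposite signs of Scnn1a in the 2 genotypes rested largely on a single library. The interaction of genotype and UVB was 0.495 (SE 0.22), with an unadjusted limma p under 0.05 that did not hold after adjustment over all genes (limma adjusted p = 0.711). Across all 13105 genes 0 were called in the interaction (0%), while 6.92% had an unadjusted limma p under 0.05. Without UVB WT replicate 2 the interaction was 0.21 (limma adjusted p = 0.826), and the change in WT turned from -0.21 to 0.08. Without that library, which narrowed the spread estimated for Scnn1a, the change in P1.hMR stayed at 0.29 with a limma adjusted p of 0.0158, still below the fold threshold.

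Scnn1b, the beta subunit, had groups that overlapped between treatments in both genotypes. It was at 79.51 to 97.98 TPM in control WT, 75.06 to 83.40 TPM in UVB WT, 71.70 to 87.53 TPM in control P1.hMR and 68.55 to 76.97 TPM in UVB P1.hMR glands. The log2 fold change was -0.16 in WT (95% interval -0.32 to 0.005, limma adjusted p = 0.154) and -0.15 in P1.hMR (-0.29 to -0.02, limma adjusted p = 0.0645). Averaged over genotypes it was -0.16 (SE 0.05, limma adjusted p = 0.017), under the fold threshold; 47.2% of all genes passed the adjusted p there. Scnn1g, the gamma subunit, was at 7.44 to 13.33 TPM in control WT, 5.93 to 10.69 TPM in UVB WT, 9.05 to 11.71 TPM in control P1.hMR and 6.04 to 10.27 TPM in UVB P1.hMR glands. Its log2 fold change was -0.35 in WT (-0.76 to 0.07, limma adjusted p = 0.221) and -0.25 in P1.hMR (-0.59 to 0.10, limma adjusted p = 0.242).

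Relative to the alpha subunit, the beta and gamma subunits were lower after UVB in P1.hMR. The ratio of Scnn1b to Scnn1a was 5.76 to 6.89 in control P1.hMR and 4.11 to 5.10 in UVB P1.hMR glands, and the groups did not overlap. The log2 difference was -0.46 for Scnn1b/Scnn1a and -0.58 for Scnn1g/Scnn1a, each with an exact permutation p of 0.00794, the smallest possible (0.00952 adjusted). Both ratios have Scnn1a below the line, so they are not independent results. Single genes were apart in 27.2% of cases in P1.hMR, and no such share was worked out for ratios. Scnn1g/Scnn1b differed by -0.12 (exact permutation p = 0.397). In WT the ratio Scnn1b/Scnn1a differed by 0.07 after UVB (exact permutation p = 0.914), with UVB WT replicate 2 at 11.7 and the other 2 UVB libraries at 5.02 and 6.03; without that library the difference was -0.29. Between genotypes under UVB the log2 difference of Scnn1b/Scnn1a was -0.62 (exact permutation p = 0.0714, where 0.0357 is the smallest possible; 0.429 adjusted), and -0.26 without UVB WT replicate 2. Whether the ratio responds to UVB differently in the 2 genotypes was not tested.

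The 3 subunits ranked the UVB P1.hMR libraries alike, in 1 order of the 5 libraries, whereas each other group gave 3 orders; this was noticed after the values were seen. As deviations from the group means over the 17 libraries, Scnn1a correlated with Scnn1g at r = 0.452 and with Scnn1b at r = -0.195, and Scnn1b with Scnn1g at r = 0.132. The genes whose deviations were most like those of Scnn1a were Serpinb2 (r = 0.930), Ppfia3 (r = 0.885) and Wnt7b (r = 0.884). For Scnn1b they were Ppard (r = 0.882), Ggt6 (r = 0.864) and Tymp (r = 0.848), and for Scnn1g Erbb3 (r = 0.851), Zcwpw2 (r = 0.777) and Siah1 (r = 0.771). These values describe 17 bulk libraries, whose marker sums for other tissue varied, and were the highest of all genes tested. For Scnn1a the largest deviation was that of UVB WT replicate 2, at 7.15 TPM beside 12.56 and 14.96 TPM in its group. The r values of Scnn1a may rest largely on that library, and r without it was not computed.

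Nedd4l, the ligase that acts on ENaC, was lower after UVB, with an adjusted p under the threshold but a change short of the fold threshold. It was at 16.49, 20.86, 21.18 and 20.24 TPM in control WT and at 16.52, 14.31 and 12.28 TPM in UVB WT glands. In control P1.hMR glands it was at 18.59, 20.04, 21.62, 21.29 and 15.89 TPM, and in UVB P1.hMR glands at 11.68, 16.02, 15.34, 15.84 and 11.13 TPM. In each genotype the groups met at their edges, where the lowest control library lay just under the highest UVB library. The log2 fold change was -0.43 in WT (95% interval -0.73 to -0.14, limma adjusted p = 0.0358) and -0.46 in P1.hMR (-0.70 to -0.21, limma adjusted p = 0.00505); 21.5% and 39.1% of all genes had an adjusted p under 0.05 there. With the muscle markers as a covariate the change was -0.26 in WT (limma adjusted p = 0.28) and -0.33 in P1.hMR (limma adjusted p = 0.046), and with the nerve markers -0.46 (limma adjusted p = 0.151) and -0.48 (limma adjusted p = 0.0569).

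Nedd4, the closest relative of Nedd4l, was far more abundant, with group means of 197.3 to 209.9 TPM and log2 fold changes of 0.09 in WT (limma adjusted p = 0.241) and 0.06 in P1.hMR (limma adjusted p = 0.297). The log2 ratio of Nedd4l to Nedd4 was lower after UVB by -0.55 in each genotype (exact permutation p = 0.0571 in WT and 0.00794 in P1.hMR, the smallest possible in each). This ratio uses the Nedd4l values already given. Slc12a2, the cotransporter, was at 20.64 to 28.31 TPM in control WT, 18.49 to 25.70 TPM in UVB WT, 24.60 to 30.30 TPM in control P1.hMR and 21.75 to 25.55 TPM in UVB P1.hMR glands. Its log2 fold change was -0.15 in WT (95% interval -0.39 to 0.09, limma adjusted p = 0.378) and -0.21 in P1.hMR (-0.41 to -0.005, limma adjusted p = 0.0972).

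**Figure D3:**
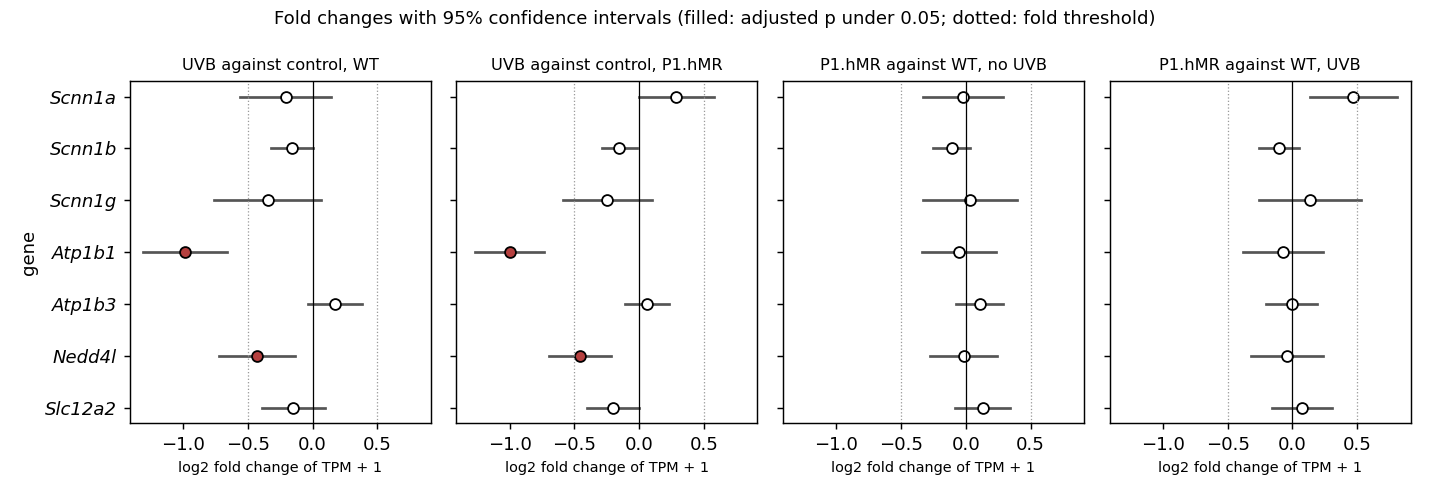
Log2 fold change of TPM + 1 for the 7 genes in 4 comparisons, with 95% confidence intervals from limma; filled points have an adjusted p under 0.05 and dotted lines mark the fold threshold of 0.5. Atp1b1 lies at -0.98 and -1.001 after UVB, Nedd4l at -0.43 and -0.46 inside the threshold, and no gene is filled between genotypes.

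With the excess of MR alone, no difference of the 7 genes exceeded the spread of the libraries. Without UVB 0 of 7 were called between P1.hMR and WT (0.00763% of all genes, which is NR3C2 itself), and 0 of 7 had an unadjusted limma p under 0.05. The log2 differences ran from -0.11 for Scnn1b (95% interval -0.25 to 0.03) to 0.13 for Slc12a2 (-0.08 to 0.34), each with a limma adjusted p of 0.998. The widest interval was that of Scnn1g, from -0.33 to 0.40, and the intervals of all 7 genes lay within 0.5 of 0. Under UVB 0 of 7 were called (0.0229% of all genes) and 1 had an unadjusted limma p under 0.05, as did 10.3% of all genes. That gene was Scnn1a, at 0.47 (95% interval 0.13 to 0.81, limma adjusted p = 0.33), and at 0.19 without UVB WT replicate 2 (limma adjusted p = 0.745). Averaged over treatments 0 of 7 were called (0.00763% of all genes) and 1 had an unadjusted limma p under 0.05 (7.61% of all genes), Scnn1b at -0.11 (limma adjusted p = 0.652).

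Among 8 tested of 12 genes for other pump subunits and FXYD regulators, small proteins that tune the pump, UVB called 0 in WT (7.91% of all genes) and 3 in P1.hMR (10.8% of all genes), all lower. In WT 2 of the 8 had an unadjusted limma p under 0.05, as did 35.3% of all genes, and in the interaction 0 of the 8 had one. Fxyd4, which raises the pump's sodium affinity in kidney, was at means of 1.87 TPM in control and 0.564 TPM in UVB P1.hMR glands (log2 fold change -0.85, limma adjusted p = 0.000947). Fxyd1, or phospholemman, known from heart and skeletal muscle, went from 82.2 to 55.8 TPM (-0.54, limma adjusted p = 0.00155). Fxyd7, known from brain, went from 2.00 to 1.05 TPM (-0.58, limma adjusted p = 0.0251). In WT, without a call, the means went from 1.615 to 0.82 TPM for Fxyd4, 80.32 to 63.65 for Fxyd1 and 2.625 to 2.423 for Fxyd7. Averaged over genotypes Fxyd4 was called lower, 1 of the 8 genes (9.48% of all genes). That call was lost with the hair shaft (-0.43, limma adjusted p = 0.0653) or nerve markers (-0.45, limma adjusted p = 0.163) as a covariate. With the nerve markers the 3 changes in P1.hMR were -0.62 (limma adjusted p = 0.0763), -0.23 (0.224) and -0.58 (0.166), so no call was kept there. Since that covariate did not overlap between treatments, a lost call there does not tell nerve content from UVB. With the muscle markers Fxyd1 was at -0.39 and Fxyd7 at -0.50 (limma adjusted p = 0.103), and with the hair shaft markers Fxyd7 was at -0.40 (limma adjusted p = 0.162), none of them called. In a fit of the compared groups alone Fxyd7 had a limma adjusted p of 0.0536. Leaving out control P1.hMR replicate 4 also ended the calls of Fxyd1 (-0.46) and Fxyd7 (limma adjusted p = 0.0603), and Fxyd7 was lost without control replicate 2 or UVB replicate 2 or 5 of P1.hMR. The list median was -0.17 in WT and -0.22 in P1.hMR.

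Of 17 genes for ENaC ubiquitination and aldosterone-induced regulation, UVB called 1 in WT and 2 in P1.hMR, which is near the shares of all genes called (7.91% and 10.8%). Sgk1, the aldosterone-induced kinase upstream of NEDD4L, fell in both: it was at 59.16 to 74.54 TPM in control WT, 41.21 to 49.81 TPM in UVB WT, 52.14 to 77.05 TPM in control P1.hMR and 38.97 to 44.62 TPM in UVB P1.hMR glands, with no overlap in either genotype, as in 26.6% of all genes in WT and 27.2% in P1.hMR. Its log2 fold change was -0.55 in WT (SE 0.11, limma adjusted p = 0.00251) and -0.59 in P1.hMR (SE 0.09, limma adjusted p = 0.000116); without UVB WT replicate 2 the change in WT was -0.47, short of the fold threshold. Usp2, whose short form is a deubiquitinase of ENaC, was called higher in P1.hMR (0.60, limma adjusted p = 0.00718) and was at 0.32 in WT (limma adjusted p = 0.255); with the nerve markers as a covariate it was at 0.46 in P1.hMR (limma adjusted p = 0.168). In the interaction 0 of the 17 genes were called and 0 had an unadjusted limma p under 0.05. Tsc22d3, or GILZ, another aldosterone-induced ENaC regulator, ranged from 28.78 to 94.46 TPM in control WT alone, and its log2 fold changes were -0.20 in WT and 0.17 in P1.hMR (limma adjusted p = 0.755 and 0.706). The list median was -0.12 in WT and 0.06 in P1.hMR.

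ENaC is activated when proteases cut its alpha and gamma subunits, and 11 such proteases and their inhibitors were all tested. UVB called 1 in each genotype, against 7.91% of all genes in WT and 10.8% in P1.hMR. Prss8, or prostasin, which cuts the gamma subunit, was at 77.98 to 84.63 TPM in control WT and 60.58 to 67.23 TPM in UVB WT glands, and at 77.14 to 87.38 and 60.38 to 72.19 TPM in P1.hMR. Its groups did not overlap, as in 26.6% of all genes in WT and 27.2% in P1.hMR. The log2 fold changes of Prss8 were -0.37 (limma adjusted p = 0.000642) and -0.30 (limma adjusted p = 0.000175), below the fold threshold. An adjusted p under 0.05 at any fold change was met by 21.5% and 39.1% of all genes. Tmprss4, a membrane serine protease, was called lower in WT, from 51.4 to 29.3 TPM (-0.76, limma adjusted p = 0.000957), and was at -0.34 in P1.hMR (limma adjusted p = 0.0181). Serpine2, or protease nexin 1, a serine protease inhibitor, was called higher in P1.hMR, from 18.1 to 34.5 TPM (0.86, limma adjusted p = 0.000243), and was at 0.40 in WT (limma adjusted p = 0.115). Whether these differ between genotypes was covered by the interaction. There 0 of the 11 were called and 1 had an unadjusted limma p under 0.05, against 6.92% of all genes. The list median was -0.04 in WT and -0.13 in P1.hMR.

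The WNK kinases act through SPAK and OSR1 on the cation-chloride cotransporters to which Slc12a2 belongs, and 12 of 16 such genes were tested. UVB called 0 in WT (7.91% of all genes) and 2 in P1.hMR (10.8% of all genes). In WT 3 of the 12 had an unadjusted limma p under 0.05, against 35.3% of all genes. In the interaction 1 had one, against 6.92% of all genes, and 0 were called. Slc12a8, a distant member of the cotransporter family, was lower, from 11.8 to 6.79 TPM (-0.71, limma adjusted p = 0.00013), with -0.43 in WT (limma adjusted p = 0.0319). Wnk2 was lower, from 4.02 to 2.52 TPM (-0.51, limma adjusted p = 0.00223), but its fold change lay at the threshold and was short of it without control P1.hMR replicate 4 (-0.43) or UVB P1.hMR replicate 1 (-0.49), 4 (-0.46) or 5 (-0.47), under quantile normalization (-0.49), median-of-ratios scaling (-0.499) and sample weights (-0.49), and with the muscle (-0.34) or nerve markers (-0.32, limma adjusted p = 0.158) as a covariate. The list median was -0.08 in WT and -0.15 in P1.hMR.

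Among 12 tested of 17 genes for other sodium entry and chloride exit, UVB called 4 in each genotype, 3 lower and 1 higher in WT and 2 lower and 2 higher in P1.hMR, where 7.91% and 10.8% of all genes were called. Slc34a2, a sodium-phosphate cotransporter, fell from 56.8 to 29.6 TPM in WT (-0.91, limma adjusted p = 0.000165) and from 53.1 to 35.8 TPM in P1.hMR (-0.56, limma adjusted p = 0.0004). Slc5a1, the sodium-glucose cotransporter SGLT1, fell from 41.0 to 27.6 TPM (-0.55) and from 46.3 to 29.2 TPM (-0.65), and was short of the fold threshold in WT without UVB WT replicate 2 (-0.47) and with the hair shaft (-0.43) or nerve markers (-0.39, limma adjusted p = 0.0689) as a covariate. Slc6a14, a sodium- and chloride-coupled amino acid transporter, rose from 27.7 to 40.0 TPM in WT (0.52) and from 32.1 to 55.1 TPM in P1.hMR (0.76). In WT it was short of the fold threshold without control WT replicate 1 (0.49) or 4 (0.49) or UVB WT replicate 1 (0.48), and with sample weights (0.49). There the adjusted p was lost too with the muscle (0.41, limma adjusted p = 0.0939), hair shaft (0.41, limma adjusted p = 0.141) or nerve markers (0.33, limma adjusted p = 0.256) as a covariate.

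The remaining calls of that list were each made in 1 genotype. In the interaction 0 of the 12 genes were called, while 3 had an unadjusted limma p under 0.05, against 6.92% of all genes. The acid-sensing channel Asic2 was called lower in WT, from 1.45 to 0.593 TPM (-0.63, limma adjusted p = 0.0126), but not without UVB WT replicate 1 (limma adjusted p = 0.0544) or 2 (limma adjusted p = 0.0564), nor in a fit of the compared groups alone (limma adjusted p = 0.0544). With the hair shaft markers as a covariate it was at -0.46 (limma adjusted p = 0.172) and with the nerve markers at -0.50 (limma adjusted p = 0.178). In P1.hMR the mean of Asic2 was also lower after UVB, from 1.504 to 0.908 TPM, without a call. Averaged over genotypes Asic2 was called lower (9.48% of all genes were called), and 13 alternative settings, left-out libraries among them, lost that call. The sodium-bicarbonate cotransporter Slc4a7 was called higher in P1.hMR, from 8.05 to 12.4 TPM (0.58, limma adjusted p = 0.00277), and was at 0.47 without control P1.hMR replicate 4, at 0.49 with the muscle markers and at 0.24 (limma adjusted p = 0.305) with the nerve markers as a covariate. In WT the mean of Slc4a7 went the other way, from 10.86 to 9.703 TPM, without a call. The list median was -0.07 in WT and 0.03 in P1.hMR. Between genotypes 0 of its 12 genes were called, while 4 had an unadjusted limma p under 0.05 under UVB, against 10.3% of all genes.

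**Figure D4:**
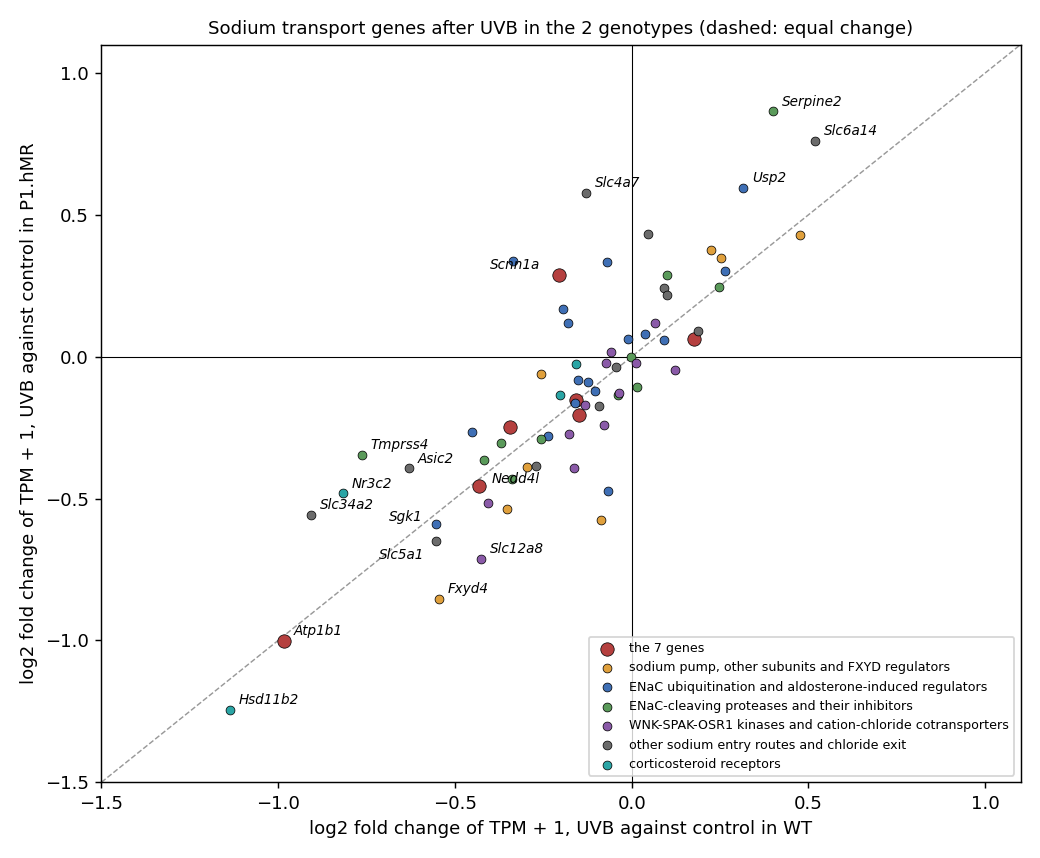
Log2 fold change of TPM + 1 after UVB in WT (x axis) and in P1.hMR (y axis) for the 7 genes and the tested genes of the 6 related lists, NR3C2 left out because it is at 0 in WT; the dashed line marks equal change. Atp1b1 (-0.98 and -1.001), Hsd11b2 (-1.14 and -1.24) and Sgk1 (-0.55 and -0.59) lie near the line, and Scnn1a (-0.21 and 0.29) lies off it.

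Of 5 genes that set the corticosteroid signal, UVB called 2 in WT and 1 in P1.hMR, where 7.91% and 10.8% of all genes were called. Hsd11b2, the enzyme that inactivates glucocorticoids and so leaves MR to aldosterone, fell from 4.05 to 1.27 TPM in WT (-1.14, limma adjusted p = 0.00197) and from 4.80 to 1.38 TPM in P1.hMR (-1.24, limma adjusted p = 6.7e-05), with no overlap, as in 26.6% and 27.2% of all genes. Rat MR, listed as Nr3c2, fell in WT from 16.2 to 8.45 TPM (-0.82, limma adjusted p = 0.02), but the call was lost without control WT replicate 2 (limma adjusted p = 0.0504) or UVB WT replicate 1 (0.0703) or 3 (0.0866), with the muscle markers (-0.78, limma adjusted p = 0.0816) and in a fit of the compared groups alone (limma adjusted p = 0.12). Its values in control WT ranged from 10.61 to 25.90 TPM. In P1.hMR it was at -0.48 (limma adjusted p = 0.0585). The glucocorticoid receptor Nr3c1 was at -0.20 in WT (limma adjusted p = 0.0327) and -0.13 in P1.hMR (0.0525), and Hsd11b1, which regenerates glucocorticoids, at -0.16 (0.237) and -0.02 (0.821), with no call. The transgene NR3C2 was the only gene of the 6 lists called between genotypes, in each treatment, and reads of the human and rat receptor may be shared between the 2 entries. Its mean was 8.16 TPM in control and 6.53 TPM in UVB P1.hMR glands (log2 fold change -0.29, limma adjusted p = 0.0479), below the fold threshold.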

How the data were processed

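MG RNA from 17 rat samples was sequenced, and the deposited table holds TPM values for 17251 genes, made by the authors and written with a decimal comma. The methods name FastQC, STAR, the rn7 genome and RSEM, whereas the submitters' processing notes list FastQC, Trimmomatic, DRAGEN, Picard and rn7; which of them made the table is not settled. TPM is not a count, so the count test of the methods was not used. Here log2(TPM + 1) was tested with limma 3.58.1 (R 4.3.3, variance trend) for 13105 genes of at least 1 TPM in at least 3 libraries, in a single model of the 4 groups. Calls required a p under 0.05 after Benjamini-Hochberg adjustment over all genes, and a log2 fold change of 0.5 or more in either direction. Fold changes on this scale understate the change of low genes. The 6 subunit ratios were compared by exact two-sided permutation tests, whose p is the smaller tail counted on both sides, adjusted over the 6 ratios; a gene of the fixed rule and the ratio that uses it are not reported here. That convention replaced the absolute difference after first p-values had been seen, and raised the smallest p attainable with groups of unequal size.

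The members and lists were chosen with earlier results of these data known. Named were all 7 genes, Sgk1, Tsc22d3, Nedd4, Prss8, NR3C2 and Nr3c2, up to 4 called genes of each list with the largest change, and the 3 genes closest to each ENaC subunit. The scripts were tested on simulated data. Alternatives covered normalization, pseudocount, filters, fold threshold, sample weights, marker covariates, a replicate block and leaving out each library. Depth could not be assessed from TPM.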

Additional observations from a re-analysis of the deposited data

Results flagged for a closer look

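Groups of 4 or 5 libraries were examined for a library far from the others, 36 in all (7 genes and 5 ratios in 3 groups). Of these 1 stood out, where chance gives about 1 group in 20, so 1 flag is no more than chance gives. The ratios reuse the values of the genes, and UVB WT, with 3 libraries, was not examined. The ratio of Scnn1g to Scnn1b was 0.0881 in UVB P1.hMR replicate 1, and 0.126 to 0.135 in the other 4 libraries of that group. In that library Scnn1g was at 6.04 TPM and Scnn1b at 68.55 TPM, the lowest of the group for each. The cause was not tested.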

How the results depend on the processing

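Atp1b1 kept its direction and its call after UVB in both genotypes under every normalization, pseudocount, filter, covariate and left-out library tried, at -1.02 to -0.75 over the settings that kept all libraries, but not at a fold threshold of 1, where 0 genes were called in WT and on average and 1 in P1.hMR. With each library left out in turn Atp1b1 was at -1.16 to -0.78 in WT and -1.07 to -0.93 in P1.hMR. The smallest change in WT, -0.78 (limma adjusted p = 0.00239), came without UVB WT replicate 2. Nedd4l joined Atp1b1 in P1.hMR and on average, making 2 called, with sample weights (-0.50 and -0.50) and with hair shaft markers as a covariate (-0.53 and -0.54). Without a fold threshold 2 genes were called in WT, 2 in P1.hMR and 3 on average. Leaving out a library gave 1 to 2 called in WT (2 without control WT replicate 1 or UVB WT replicate 1, Nedd4l at -0.51 and -0.53) and 1 to 2 in P1.hMR (2 without control replicate 5 or UVB replicate 2 or 4). Of the 30 ratio tests 6 passed, and 6 to 8 with a library left out; without UVB WT replicate 2, Scnn1b/Scnn1a (-0.38) and Scnn1g/Scnn1a (-0.52) passed on average over genotypes.

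Changes of sign were limited to values not past the threshold in either form. Atp1b3 between genotypes under UVB was 0.0079 with quantile normalization, 0.017 with median-of-ratios scaling, 0.0033 with hair shaft and 0.013 with epithelial markers. The interaction was 0.0041 for Atp1b1 with median-of-ratios scaling, 0.023 for Nedd4l with hair shaft markers, and -0.018 with sample weights and -0.0035 with epithelial markers for Scnn1b. Scnn1g between genotypes without UVB was -0.037 with sample weights. Averaged over genotypes Scnn1a was -0.082 with muscle markers. With nerve markers Slc12a2 was 0.15 in WT, 0.062 in P1.hMR and 0.11 on average. With each library left out in turn the ranges for UVB in WT were Scnn1a -0.41 to 0.077, Scnn1b/Scnn1a -0.29 to 0.32 and Scnn1g/Scnn1a -0.45 to 0.14. The same ranges for UVB in P1.hMR were Atp1b3 -0.0046 to 0.10. The same ranges between genotypes without UVB were Atp1b1 -0.13 to 0.013, Nedd4l -0.095 to 0.052, Scnn1a -0.070 to 0.035, Scnn1g -0.10 to 0.15, Scnn1b/Scnn1a -0.18 to 0.022, Scnn1g/Scnn1a -0.037 to 0.22, Scnn1g/Scnn1b -0.059 to 0.26 and Nedd4l/Nedd4 -0.078 to 0.038. The same ranges between genotypes under UVB were Atp1b1 -0.28 to 0.11, Atp1b3 -0.042 to 0.021, Nedd4l -0.14 to 0.058, Scnn1g -0.044 to 0.33, Slc12a2 -0.057 to 0.17, Atp1b1/Atp1b3 -0.24 to 0.10 and Nedd4l/Nedd4 -0.14 to 0.051. The same ranges for the interaction were Atp1b1 -0.22 to 0.16, Nedd4l -0.13 to 0.074, Scnn1b -0.053 to 0.051, Scnn1g -0.079 to 0.30 and Slc12a2 -0.19 to 0.040. The same ranges for UVB averaged were Scnn1a -0.059 to 0.18. The same ranges between genotypes averaged were Atp1b1 -0.16 to 0.029, Nedd4l -0.079 to 0.021, Scnn1g -0.0040 to 0.18, Nedd4l/Nedd4 -0.086 to 0.0087 and Scnn1g/Scnn1a -0.29 to 0.00040. The causes were not tested.

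Same-numbered libraries of different groups share a number only: of 22 such pairs 4 had deviations correlated above 0.1 (median -0.005), and 6 of 17 libraries correlated best with their own number. With the replicate number as a block Atp1b1 was at -0.99 in WT and -1.001 in P1.hMR, and 1 of the 7 genes was called in each; Nedd4l between genotypes changed sign, to 0.054 without UVB, 0.0051 under UVB and 0.030 on average, as did Scnn1g without UVB, to -0.0080.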
